A study of Mus musculus with 31 samples.

Results

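The 10 genes described here were *Ccl2*, *Ccl7*, *Ccl5*, *Ccl20*, *Cxcl9*, *Cxcl10*, *Cxcl12*, *Cxcl16*, *Cx3cl1* and *Csf1*, the chemokines that recruit monocytes and lymphocytes together with the growth factor of the macrophage lineage. They were picked by symbol out of the 55487, 56980 and 56941 genes listed in 3 count tables, and each symbol had a single entry. RNA was sequenced from 31 samples of Panc02, a murine pancreatic adenocarcinoma cell line, grown without other cell types. In the conditioned medium experiment (9 samples), spheroids in Matrigel received a serum-matched control medium (Ctrl) or medium conditioned by macrophages grown from the bone marrow of C57BL/6J mice, either unpolarised (M0-CM) or treated with IFNγ and then LPS (M1-CM), with 3 samples in each group. Both conditioned media carried L929 supernatant, a source of the CSF1 protein on which such macrophages are raised. In the 2D and 3D experiment (12 samples), WT and *Cxcl5*-/- cells were grown as a monolayer (2D) or in Matrigel (3D), with 3 samples in each of the 4 groups. In the rescue experiment (10 samples, all 3D), WT (n = 2) and *Cxcl5*-/- cells (n = 2) were set beside *Cxcl5*-/- cells that overexpressed a stabilised mutant of *Hif1α* (*Hif1α*OE*Cxcl5*-/-, n = 3) or *Myc* (*Myc*OE*Cxcl5*-/-, n = 3) from a retroviral vector. The knockout was made with lentiCRISPRv2 and puromycin selection, and whether the line was a single clone is not given in the sources used here. For the rescue experiment the labels number the cell line differently in each sample, and the name Panc02 follows the study's text.

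Chemokines are small secreted proteins that guide leukocytes along a gradient to receptors on their surface. *Ccl2* and *Ccl7* are ligands of CCR2 and draw monocytes out of the bone marrow and into tissue, and *Csf1*, acting through CSF1R, keeps the macrophages that they give rise to alive. *Cxcl9* and *Cxcl10*, ligands of CXCR3 and classical targets of interferon, recruit activated T cells and NK cells, while *Ccl5* acts on T cells and monocytes. *Ccl20* attracts CCR6-bearing lymphocytes and dendritic cells, and *Cxcl12* acts through CXCR4 and is scavenged by the atypical receptor ACKR3. *Cxcl16* (receptor CXCR6) and *Cx3cl1* (receptor CX3CR1) differ from the others in being made as membrane-anchored proteins from which the chemokine part is shed by ADAM10 and ADAM17.

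The promoters of the interferon-linked chemokines and of *Csf1* are shown because *Cxcl10* and *Csf1* differed between cultures and genotypes, and because *Cxcl9*, for which no test is given, lies beside *Cxcl10* but was counted at a far lower level. The sequences are the 250 bases before the transcription start in RefSeq (GRCm38.p6), written 5′ to 3′ on the strand of the gene, with matches to an interferon-stimulated response element core or an NF-κB consensus in capitals. The *Cxcl10* window is chr5:92348890-92349139, minus strand, the *Cxcl9* window is chr5:92328080-92328329, minus strand, and the *Csf1* window is chr3:107760470-107760719, minus strand.
Cxcl10: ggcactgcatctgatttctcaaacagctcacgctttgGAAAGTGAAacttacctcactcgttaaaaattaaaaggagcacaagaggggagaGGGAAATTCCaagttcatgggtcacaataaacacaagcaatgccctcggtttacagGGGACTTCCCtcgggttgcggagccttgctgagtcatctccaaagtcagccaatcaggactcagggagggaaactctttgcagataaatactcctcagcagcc
Cxcl9: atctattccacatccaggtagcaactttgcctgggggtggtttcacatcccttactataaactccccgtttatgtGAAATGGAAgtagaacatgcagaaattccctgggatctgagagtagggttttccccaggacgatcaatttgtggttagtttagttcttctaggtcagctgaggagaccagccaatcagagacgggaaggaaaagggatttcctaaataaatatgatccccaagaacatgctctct
Csf1: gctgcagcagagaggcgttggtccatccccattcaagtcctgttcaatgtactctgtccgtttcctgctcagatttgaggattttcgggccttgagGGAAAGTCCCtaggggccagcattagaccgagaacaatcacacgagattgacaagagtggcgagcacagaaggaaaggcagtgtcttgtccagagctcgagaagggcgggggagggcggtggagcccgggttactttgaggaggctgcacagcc

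The *Cxcl10* promoter held the interferon core GAAAGTGAA from base 213 to base 205 before the start and a pair of NF-κB matches, GGGAAATTCC from 159 to 150 and GGGACTTCCC from 103 to 94. The *Cxcl9* window held 1 interferon core, GAAATGGAA, from 175 to 167, and the *Csf1* window 1 NF-κB match, from 154 to 145, which read GGAAAGTCCC on the strand shown. Of 32851 promoters of the same length searched on both strands, 7.13% held the interferon core GAAANNGAA and 3.90% the NF-κB consensus, so each single match was an uncommon but not a rare feature. Promoters were found for 6 of the 10 genes. The *Ccl20* promoter held 1 NF-κB match and those of *Cxcl12* and *Cx3cl1* none of the searched motifs, and neither the gamma-activated site TTCNNNGAA (7.02% of all promoters) nor the hypoxia core ACGTG (16.6%) occurred in any of the 6 windows. *Ccl2*, *Ccl7*, *Ccl5* and *Cxcl16* had no entry. A match is a description of letters and no binding was measured.

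In the annotation of the same build (GENCODE vM21), *Ccl2* (chr11:82035571-82037453, plus strand) and *Ccl7* (chr11:82045712-82047525, plus strand) are neighbours 8258 bp apart, and *Cxcl9* (chr5:92321347-92328079) and *Cxcl10* (chr5:92346638-92348889), both on the minus strand, lie 18558 bp apart. *Csf1* occupies chr3:107741048-107760469 on the minus strand. Other genes overlap some of these loci on the opposite strand, and the strand setting of the counting is not given in the sources used here. The counts of *Art3*, which overlaps *Cxcl10*, came to a median of 4.09% to 13.0% of those of *Cxcl10* in the 3 tables, and those of *Zmynd15*, which overlaps *Cxcl16*, to 3.35% to 9.83% of those of *Cxcl16*.

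Libraries held 41542533 to 78498230 counts. Epithelial identity was partial: *Krt8* averaged 147 to 569 CPM (counts scaled to the same library size) over the groups, while *Epcam*, *Cdh1* and *Cldn4*, defining epithelial genes, did not exceed 0.609 CPM in any library. The summed level of the 8 epithelial markers was 546 to 593 CPM in 2D WT, 450 to 484 in 2D *Cxcl5*-/-, 853 to 1097 in 3D WT and 217 to 236 CPM in 3D cells labelled *Cxcl5*-/-. In rescue samples the same sum was 856 to 903 CPM in WT, 287 to 302 in *Cxcl5*-/-, 705 to 837 with *Hif1α* and 267 to 312 CPM with *Myc*. *Krt8*, *Krt18* and *Krt19* were called lower in both of those 3D comparisons of genotype. *Krt7*, of the same list, was called higher in cells labelled *Cxcl5*-/- than in WT cells in both 3D and 2D. Between the rescue genotypes it was not called. The summed level of the fibroblast markers differed too. It was 150 to 158 CPM in 3D WT cells and 393 to 446 CPM in 3D cells labelled *Cxcl5*-/-, and in the rescue experiment 72.4 to 76.4 CPM in WT, 447 to 454 in *Cxcl5*-/-, 131 to 171 in *Hif1α*OE*Cxcl5*-/- and 310 to 340 CPM in *Myc*OE*Cxcl5*-/- cells. Of the 6 markers, *Pdgfra* and *Pdgfrb* carried most of that sum and were called higher in 3D cells labelled *Cxcl5*-/- than in 3D WT cells, where *Dcn* (37.7 against 2.82 CPM) and *Lum* (6.87 against 2.85 CPM) were called lower. Between rescue genotypes all 4 were called higher in *Cxcl5*-/- cells, *Dcn* averaging 4.52 CPM in WT and 61.4 in *Cxcl5*-/- and *Lum* 2.61 and 86.8 CPM. The markers thus did not move as a set in both experiments, and *Fap* was at 0 in the *Cxcl5*-/- libraries of both experiments that carried no transgene. *Cxcl5* itself was counted at 45.6 to 49.1 CPM in 2D WT and 32.7 to 37.4 in 2D *Cxcl5*-/- cells. It was at 24.5 to 28.5 in 3D WT cells but 40.9 to 65.5 CPM in 3D cells labelled *Cxcl5*-/- (log2 difference 0.91 ± 0.14 SE, edgeR adjusted p = 0.000173). This count does not show the loss that the label names. Among rescue samples *Cxcl5* averaged 66.0 CPM in WT and 38.4 in *Cxcl5*-/- cells. Edited bases and protein are not seen in a gene count, and the study reports that the knockout was checked by immunoblot for CXCL5. The *Myc* transgene was visible, with *Myc* at 21.1 CPM in *Cxcl5*-/- and 490 in *Myc*OE*Cxcl5*-/- cells on average. *Hif1a* averaged 314 CPM in rescue WT, 139 in *Cxcl5*-/-, 266 in *Hif1α*OE*Cxcl5*-/- and 258 in *Myc*OE*Cxcl5*-/- cells, so its count does not set the *Hif1α* line apart. The 2 rescue WT libraries stood apart from the other 29, with 43037 and 43048 genes above 0 against 19448 to 31449. They also had counts for 8 of 8 macrophage markers (elsewhere up to 7) and 4 of 4 T cell markers (elsewhere up to 3). The T cell markers came to 1.59 and 2.32 CPM in sum, elsewhere up to 0.542. All 3 endothelial markers had counts there, as in some other libraries, at 1.65 and 3.17 CPM in sum, elsewhere up to 0.979.

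Of the 10 genes, 7 (*Ccl2*, *Ccl7*, *Csf1*, *Cx3cl1*, *Cxcl16*, *Cxcl10* and *Ccl5*) were counted highly enough to be tested in all 3 experiments. *Ccl20*, *Cxcl9* and *Cxcl12* could be tested only in the rescue experiment, where they passed the filter through the groups in which they were high. Their counts are described apart and no test of them is given. *Ccl2* had the highest mean level per length of the 10 transcripts in all 11 groups. It reached 202 CPM per kb of exon in 2D WT cells, where *Ccl7* stood at 99.7 and *Csf1* at 27.2. In 3D WT cells of the same experiment *Ccl2* (47.5 CPM per kb) and *Csf1* (45.9) were close, with *Ccl7* at 23.4 and *Cx3cl1* at 11.1. *Cxcl10*, *Cxcl16* and *Ccl5* were low throughout, at 2.47, 0.77 and 1.27 CPM per kb in 3D WT cells. The 3 tables were counted and scaled apart, so levels are compared by test only within an experiment.

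**Figure D1:**
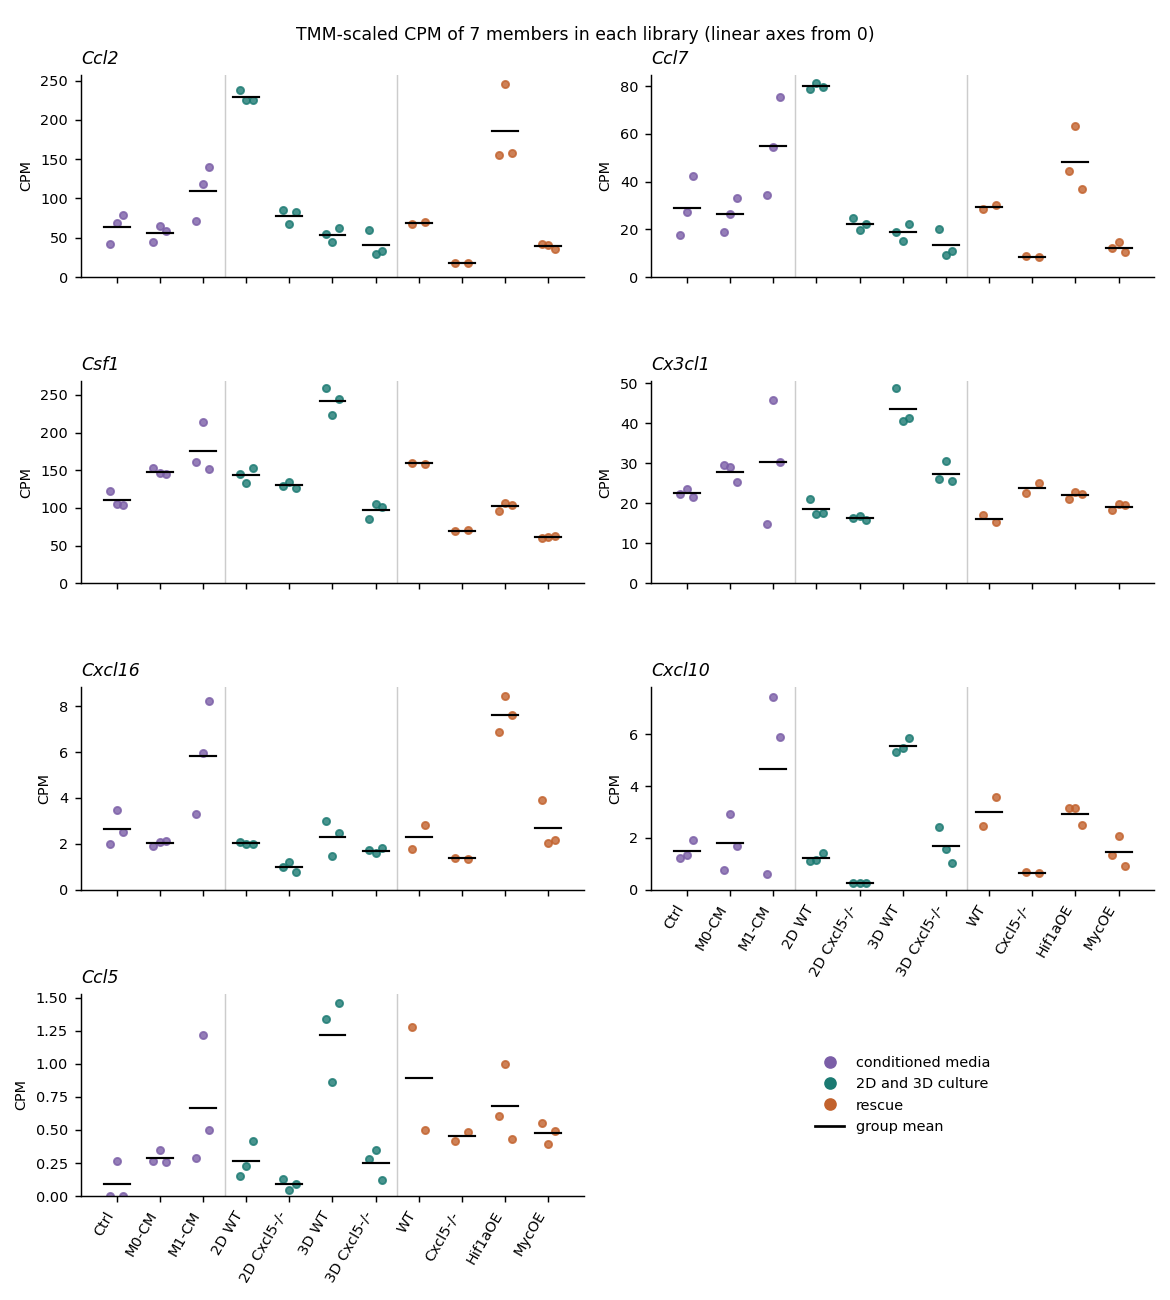
CPM (scaled by TMM, linear axes that start at 0) of the 7 genes tested in all 3 experiments, with 1 point per library, a line at each group mean and a colour for each experiment. Within their experiments *Ccl2* and *Ccl7* were highest in 2D WT cells and in *Hif1α*OE*Cxcl5*-/- cells, whereas *Csf1*, *Cx3cl1*, *Cxcl10* and *Ccl5* were higher in 3D than in 2D WT cells.

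Differences were tested with the edgeR quasi-likelihood test over all genes of a table and called at a Benjamini-Hochberg adjusted p under 0.05. Nothing in the labels says that samples of a group came from separate cultures, so p-values measure only the spread between these samples. Macrophage media gave no call: by edgeR, 0 of the 7 genes passed between M1-CM and Ctrl, where 0.0156% of all genes tested were called. The same held between M1-CM and M0-CM (0 of 7, 0.0156% of all genes) and between M0-CM and Ctrl (0 of 7, 0% of all genes). At an unadjusted edgeR p under 0.05 there were 4, 3 and 1 of the 7 genes in these comparisons. Of the 19207 genes tested, 903, 498 and 569 were under the same limit. DESeq2 called 1 of the 7, *Csf1*, between M1-CM and Ctrl, where it called 69 genes up and 28 down of the 19207, and none in the other pair of comparisons. For M0-CM against Ctrl, DESeq2 called 14 genes up and 3 down. The median log2 difference of the 7 genes was 0.92 between M1-CM and Ctrl and 1.06 between M1-CM and M0-CM, against 0.015 and -0.0070 over all genes.

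Most of the 7 were called between cultures and between genotypes, and the share of all genes called is given beside each count. Between 3D and 2D WT cells 6 of 7 changed, 4 up and 2 down, where 44.3% of all genes tested were called. In 3D cells labelled *Cxcl5*-/-, 4 of 7 were lower than in 3D WT cells and none higher (45.0% of all genes called, median log2 difference -0.67 for the 7 and -0.039 for all genes). In 2D, 4 of 7 were lower in *Cxcl5*-/- than in WT cells and none higher, where 7.03% of all genes were called (median -1.54 against -0.015). 3D cells labelled *Cxcl5*-/- differed from 2D *Cxcl5*-/- cells in 7 of 7 genes, 4 up and 3 down (57.0% of all genes called). The genotype effect itself differed between 3D and 2D, as an interaction, for 4 of 7 (27.2% of all genes called). In the rescue experiment, 5 of the 7 differed between *Cxcl5*-/- and WT cells, 4 lower and 1 higher (41.9% of all genes called), 5 of 7 were higher in *Hif1α*OE*Cxcl5*-/- than in *Cxcl5*-/- cells (35.5% of all genes called), 4 of 7 differed between *Myc*OE*Cxcl5*-/- and *Cxcl5*-/- cells, 3 higher and 1 lower (39.6% of all genes called), and 5 of 7 were lower in *Myc*OE*Cxcl5*-/- than in *Hif1α*OE*Cxcl5*-/- cells (19.3% of all genes called). Where so large a share of all genes was called, a call on a single gene sets it apart little, and the sizes below carry more than the counts. The middle gene of the rescue table was 0.30 lower on the log2 scale in *Cxcl5*-/- than in WT cells, 0.16 higher in *Hif1α*OE*Cxcl5*-/- than in *Cxcl5*-/- cells, and 0.11 higher in *Myc*OE*Cxcl5*-/- cells, and that of the 2D and 3D table was 0.11 higher in 3D cells labelled *Cxcl5*-/- than in 2D *Cxcl5*-/- cells, so folds are to be read against these shifts.

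**Figure D2:**
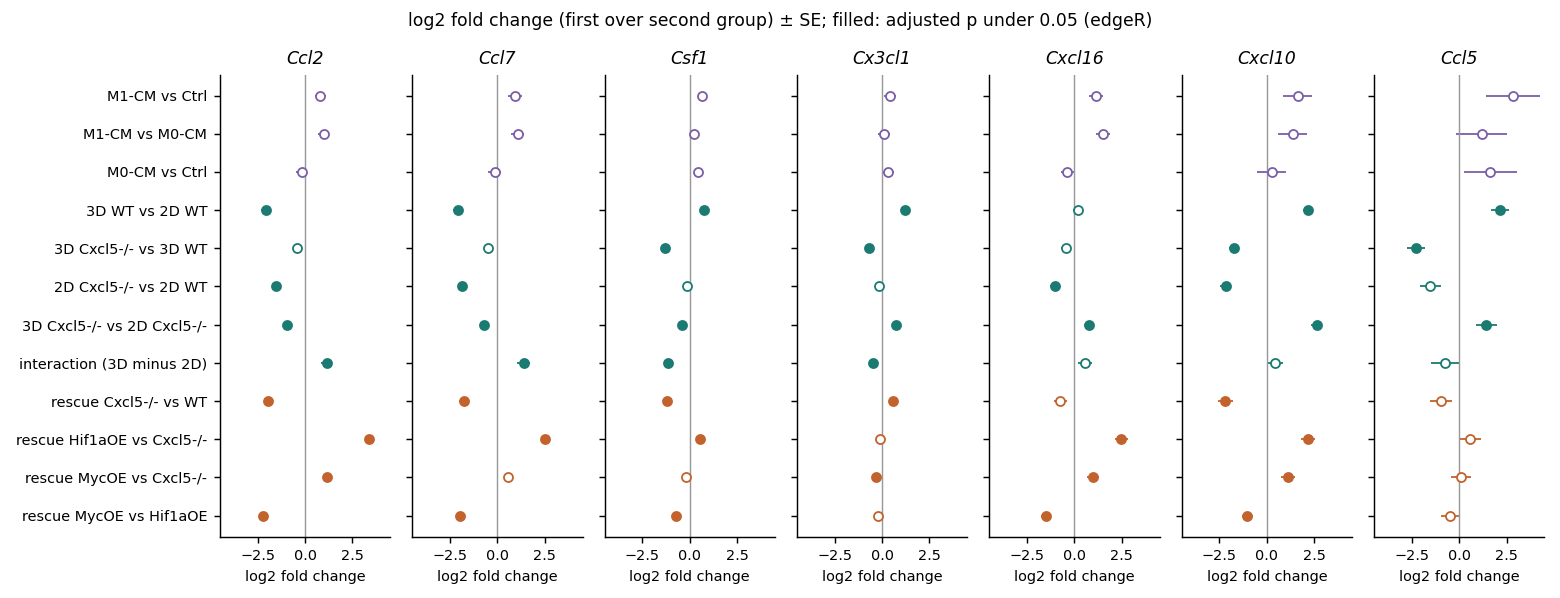
Log2 differences (x axis, points, with bars of 1 SE) of the 7 genes in the 12 comparisons, with filled points where the edgeR adjusted p was under 0.05. The comparisons of conditioned media have no filled point, and *Ccl2* in *Hif1α*OE*Cxcl5*-/- against *Cxcl5*-/- cells, at 3.39, lies farthest to the right.

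*Ccl2*, the main monocyte attractant, was far higher in 2D than in 3D WT cells. Its level was 238, 225 and 225 CPM in 2D WT cells and 54.6, 45.2 and 62.3 CPM in 3D WT cells. Those groups lay far apart, and *Ccl2* was 4.24-fold lower in 3D (log2 difference -2.09 ± 0.22 SE, edgeR adjusted p = 3.46e-06). In 2D *Cxcl5*-/- cells it was at 85.1, 67.1 and 82.7 CPM, below every WT library, and fell by 1.55 on the log2 scale (SE 0.21, edgeR adjusted p = 0.000346), a 2.93-fold difference. In 3D cells labelled *Cxcl5*-/- it was at 59.4, 29.5 and 32.9 CPM, the first of which lay among the WT values. The test against 3D WT did not pass (log2 difference -0.41 ± 0.21 SE, edgeR adjusted p = 0.127), and it rested on that library: without it the difference was -0.82 (adjusted p = 0.000261). The genotype effect was smaller in 3D than in 2D by 1.14 on the log2 scale (SE 0.30, edgeR adjusted p = 0.012 for the interaction). Between 3D cells labelled *Cxcl5*-/- and 2D *Cxcl5*-/- cells *Ccl2* fell by 0.95 on the log2 scale (edgeR adjusted p = 0.00165).

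*Ccl7*, the neighbouring gene and the other CCR2 ligand, moved alongside it at a lower level. It was at 78.9, 81.2 and 79.6 CPM in 2D WT, 24.6, 19.5 and 22.2 in 2D *Cxcl5*-/-, 19.0, 15.1 and 22.2 in 3D WT, and 20.3, 9.15 and 11.1 CPM in 3D cells labelled *Cxcl5*-/-. Only the 2D WT libraries stood clear of all others. The change from 2D to 3D in WT cells was -2.09 ± 0.23 SE on the log2 scale (4.25-fold, edgeR adjusted p = 6.84e-06), and in 2D the *Cxcl5*-/- cells were 3.61-fold lower than WT (log2 difference -1.85 ± 0.23 SE, edgeR adjusted p = 0.000158). In 3D the genotype difference of -0.47 ± 0.23 SE did not pass (edgeR adjusted p = 0.111), and again passed without library 1 of those labelled 3D *Cxcl5*-/- (-0.92, adjusted p = 0.000284). The interaction was 1.38 ± 0.32 SE (edgeR adjusted p = 0.00645). The further fall of 0.71 between 2D *Cxcl5*-/- cells and 3D cells labelled *Cxcl5*-/- (edgeR adjusted p = 0.0171) was not called when library 1 of the former or library 2 or 3 of the latter was left out (adjusted p 0.0640 to 0.0770), and these groups overlapped.

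The 3D genotype difference of both CCR2 ligands was called in the rescue experiment, between 2 libraries of each genotype. Its WT libraries are the 2 that stood apart in genes detected. Each rescue comparison with WT, those of *Csf1* and *Cxcl10* included, rests on them. *Ccl2* was at 67.3 and 69.9 CPM in WT, 18.1 and 17.4 in *Cxcl5*-/-, 155, 246 and 158 in *Hif1α*OE*Cxcl5*-/- and 41.7, 41.2 and 35.1 CPM in *Myc*OE*Cxcl5*-/- cells. No 2 of these 4 groups overlapped, and the order ran from *Cxcl5*-/- through *Myc*OE*Cxcl5*-/- and WT to *Hif1α*OE*Cxcl5*-/-. *Ccl2* fell by 1.95 in *Cxcl5*-/- against WT cells (SE 0.20, 3.87-fold, edgeR adjusted p = 2.09e-05), rose by 3.39 with *Hif1α* (SE 0.20, 10.5-fold, adjusted p = 6.02e-07) and rose by 1.15 with *Myc* (SE 0.18, 2.22-fold, adjusted p = 0.000417), all on the log2 scale. The change with *Hif1α* was the largest called for any of the 7 genes in the 12 comparisons, and *Ccl2* was 4.74-fold lower in *Myc*OE*Cxcl5*-/- than in *Hif1α*OE*Cxcl5*-/- cells (edgeR adjusted p = 3.31e-06).

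*Ccl7* was at 28.7 and 30.3 CPM in rescue WT, 8.74 and 8.32 in *Cxcl5*-/-, 44.6, 63.1 and 36.9 in *Hif1α*OE*Cxcl5*-/- and 12.1, 14.6 and 10.4 CPM in *Myc*OE*Cxcl5*-/- cells. The same order of groups appeared, without overlap. It fell by 1.79 on the log2 scale in *Cxcl5*-/- cells (SE 0.23, 3.46-fold, edgeR adjusted p = 9.68e-05) and rose by 2.499 with *Hif1α* (SE 0.22, 5.65-fold, edgeR adjusted p = 7.16e-06). With *Myc* its log2 difference of 0.54 ± 0.21 SE did not pass (edgeR adjusted p = 0.0628), but passed with DESeq2 and when either *Hif1α*OE*Cxcl5*-/- library 2 or 3, or *Myc*OE*Cxcl5*-/- library 3, was left out (adjusted p 0.0125, 0.0329 and 0.0407). Against *Hif1α*OE*Cxcl5*-/- cells *Ccl7* was 3.90-fold lower in *Myc*OE*Cxcl5*-/- cells (edgeR adjusted p = 2.2e-05). Keratins moved with *Hif1α* too, *Krt18* averaging 89.0 CPM in *Cxcl5*-/- and 346 in *Hif1α*OE*Cxcl5*-/- cells. *Krt7*, *Krt8*, *Krt18* and *Krt19* were called higher with *Hif1α*, and *Sox9*, of the same epithelial list, was called lower. Fibroblast markers moved the other way from the keratins, as given above. The part of either marker set in the chemokine differences was not tested. In bulk RNA, fewer cells of a type and less RNA per cell cannot be told apart.

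The ratio of *Ccl2* to *Ccl7* was not constant. It averaged 2.87 in 2D WT (SD 0.12, n = 3) and 2.89 in 3D WT cells (SD 0.096, n = 3), so both genes had dropped in step between cultures. It was 3.54 in 2D *Cxcl5*-/- cells (SD 0.16, n = 3) and 3.04 in 3D cells labelled *Cxcl5*-/- (SD 0.16, n = 3). Among rescue samples it was 2.33 in WT and 2.08 in *Cxcl5*-/- cells (n = 2 each), 3.88 in *Hif1α*OE*Cxcl5*-/- (range 3.47 to 4.28, n = 3) and 3.21 in *Myc*OE*Cxcl5*-/- cells (range 2.82 to 3.44, n = 3). The ratio was thus above that of *Cxcl5*-/- cells in every library of both overexpressing groups. Across the libraries of an experiment Pearson's r of their log2 CPM was 0.966 (9 libraries), 0.992 (12) and 0.968 (10), given as a description because libraries of a group share their condition.

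**Figure D3:**
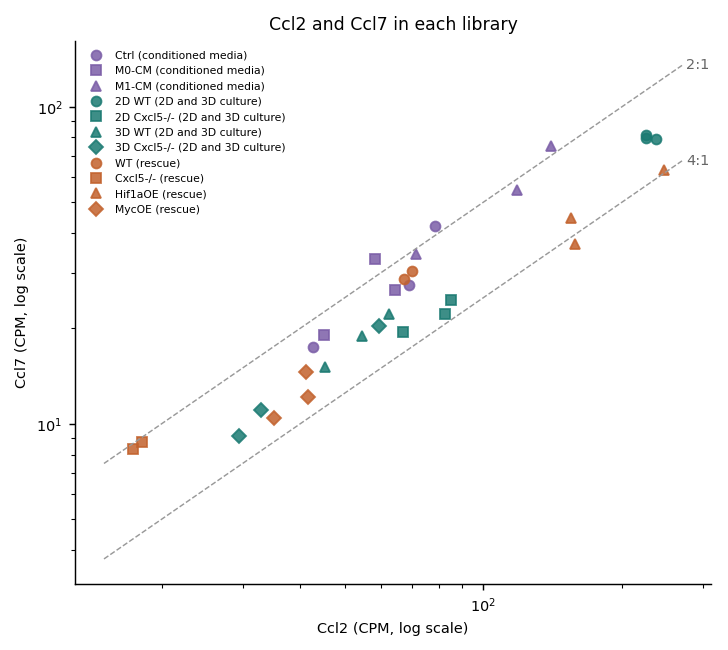
*Ccl7* against *Ccl2* in CPM, both on log axes, with 1 point per library and lines at ratios of 2 to 1 and 4 to 1. The points follow the lines over the whole range of *Ccl2*, and the 3 *Hif1α*OE*Cxcl5*-/- libraries, at ratios of 3.47 to 4.28, lie by the 4 to 1 line.

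Conditioned medium left both CCR2 ligands without a call. *Ccl2* was at 42.7, 69.1 and 78.5 CPM in Ctrl, 45.1, 64.3 and 58.1 in M0-CM and 71.5, 118 and 140 CPM in M1-CM spheroids. All M1-CM libraries lay above all M0-CM libraries, but the lowest of them lay within the Ctrl range. Its log2 difference was 0.79 ± 0.29 SE between M1-CM and Ctrl (edgeR unadjusted p = 0.0199, adjusted p = 0.965) and 0.98 ± 0.29 SE between M1-CM and M0-CM (unadjusted p = 0.0069, adjusted p = 0.989). *Ccl7* was at 17.5, 27.5 and 42.1 CPM in Ctrl, 19.0, 26.5 and 33.2 in M0-CM and 34.3, 54.7 and 75.3 CPM in M1-CM spheroids, and differed by 0.92 ± 0.36 SE between M1-CM and Ctrl (edgeR adjusted p = 0.965). Library 1 of M1-CM was the lowest of its group for 6 of the 7 genes. In the same table *Cxcl5* rose from 101 CPM in Ctrl to 682 in M1-CM on average (log2 difference 2.76 ± 0.17 SE, edgeR adjusted p = 0.000474), so a difference of that size and evenness could be called at this number of samples.

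*Csf1*, the survival factor of macrophages, went the opposite way from *Ccl2* with culture in WT cells. It was at 145, 133 and 154 CPM in 2D WT and 259, 224 and 245 CPM in 3D WT cells, and rose 1.69-fold (log2 difference 0.75 ± 0.094 SE, edgeR adjusted p = 1.88e-05). In 2D the genotypes overlapped, with 129, 134 and 127 CPM in *Cxcl5*-/- cells (log2 difference -0.14, adjusted p = 0.484). In 3D cells labelled *Cxcl5*-/- it was at 86.0, 106 and 101 CPM, under every library of the other 3 groups. It was 2.49-fold lower there than in 3D WT cells (log2 difference -1.31 ± 0.095 SE, edgeR adjusted p = 1.6e-07) and lower than in 2D *Cxcl5*-/- cells by 0.42 on the log2 scale (SE 0.094, edgeR adjusted p = 0.00185). With library totals in place of TMM the latter difference was -0.25 and not called (edgeR adjusted p = 0.0885). The interaction of -1.17 ± 0.13 SE (edgeR adjusted p = 3.78e-05) thus had the sign opposite to that of *Ccl2* and *Ccl7*: the CCR2 ligands differed more between genotypes in 2D and *Csf1* more in 3D.

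The rescue experiment gave the same direction for *Csf1*, which was at 160 and 159 CPM in WT, 70.0 and 70.2 in *Cxcl5*-/-, 95.6, 107 and 104 in *Hif1α*OE*Cxcl5*-/- and 60.6, 60.9 and 62.5 CPM in *Myc*OE*Cxcl5*-/- cells. No groups overlapped. *Csf1* fell by 1.19 in *Cxcl5*-/- cells (SE 0.082, 2.27-fold, edgeR adjusted p = 1.26e-06) and rose by 0.54 with *Hif1α* (SE 0.075, 1.46-fold, adjusted p = 0.000171) on the log2 scale. With *Myc* the log2 difference was -0.19 ± 0.074 SE (edgeR adjusted p = 0.0589), which passed with DESeq2 and without *Hif1α*OE*Cxcl5*-/- library 2 (adjusted p = 0.0419). *Csf1* in *Hif1α*OE*Cxcl5*-/- cells therefore lay between *Cxcl5*-/- and WT levels, whereas *Ccl2* lay above WT. *Myc*OE*Cxcl5*-/- cells had 1.67-fold less *Csf1* than *Hif1α*OE*Cxcl5*-/- cells (edgeR adjusted p = 1.72e-05). *Csf1* had the inverse order of the fibroblast marker sum in the 3D groups of the experiments with knockout cells, except between *Cxcl5*-/- and *Myc*OE*Cxcl5*-/- cells. The epithelial marker sum ran with *Csf1* in the same groups, except that this pair overlapped in it. The conditioned medium spheroids did not have this order. There the epithelial sum had medians of 437, 417 and 289 CPM in Ctrl, M0-CM and M1-CM, and *Csf1* means of 110, 148 and 175 CPM. The part of either marker set in the result was not tested.

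In conditioned medium *Csf1* was at 122, 105 and 104 CPM in Ctrl, 153, 146 and 145 in M0-CM and 161, 214 and 151 CPM in M1-CM spheroids. Every library in either macrophage medium exceeded every Ctrl library. The log2 difference was 0.67 ± 0.16 SE for M1-CM (edgeR unadjusted p = 0.00172, adjusted p = 0.625) and 0.42 ± 0.16 SE for M0-CM (unadjusted p = 0.022, adjusted p = 1), and M1-CM and M0-CM differed by 0.24. DESeq2 put the M1-CM difference at 0.68 with an adjusted p of 0.0282. Of the other colony stimulating factors, *Csf2* and *Csf3* did not exceed 0.174 CPM in the 2D and 3D and rescue experiments, and only *Il34*, the second ligand of CSF1R, was tested. *Il34* averaged 12.3 CPM in 2D WT, 7.26 in 2D *Cxcl5*-/-, 20.6 in 3D WT and 15.9 CPM in 3D cells labelled *Cxcl5*-/-. Each of the 4 tested differences between these groups was called, and the interaction of 0.38 was not. Among rescue samples it was at 11.9 CPM in WT and 22.4 in *Cxcl5*-/- cells (log2 difference 0.91 ± 0.22 SE, edgeR adjusted p = 0.00644), with 11.3 in *Hif1α*OE*Cxcl5*-/- and 8.08 in *Myc*OE*Cxcl5*-/- cells. In the rescue experiment *Il34* was thus higher in *Cxcl5*-/- than in WT cells, whereas *Csf1* was lower. In the 2D and 3D experiment *Il34* was lower in cells labelled *Cxcl5*-/- than in WT cells in both cultures. Both genes were lowest in *Myc*OE*Cxcl5*-/- cells among the rescue groups.

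*Cxcl10*, the interferon-inducible T cell attractant, was scarce but moved in most comparisons of culture and genotype. It was at 1.10, 1.14 and 1.40 CPM in 2D WT, 0.252, 0.273 and 0.277 in 2D *Cxcl5*-/-, 5.33, 5.49 and 5.85 in 3D WT and 2.43, 1.58 and 1.02 CPM in 3D cells labelled *Cxcl5*-/-. The 2D *Cxcl5*-/- and the 3D WT libraries marked the ends of the range, and only the other pair of groups overlapped. *Cxcl10* rose 4.57-fold from 2D to 3D in WT cells (log2 difference 2.19 ± 0.27 SE, edgeR adjusted p = 1.48e-05) and was 6.23-fold higher in 3D cells labelled *Cxcl5*-/- than in 2D *Cxcl5*-/- cells (2.64 ± 0.30 SE, edgeR adjusted p = 5.48e-06). It was 4.52-fold lower in *Cxcl5*-/- than in WT cells in 2D (log2 difference -2.18 ± 0.30 SE, edgeR adjusted p = 0.000383) and 3.31-fold lower in 3D (-1.73 ± 0.26 SE, adjusted p = 0.000122). These effects were close in size, and the interaction of 0.45 did not pass (edgeR adjusted p = 0.436).

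Rescue samples had *Cxcl10* at 2.45 and 3.57 CPM in WT, 0.685 and 0.629 in *Cxcl5*-/-, 3.16, 3.16 and 2.49 in *Hif1α*OE*Cxcl5*-/- and 1.35, 2.07 and 0.934 CPM in *Myc*OE*Cxcl5*-/- cells. WT and *Hif1α*OE*Cxcl5*-/- cells shared a range, above the other groups. It fell by 2.19 on the log2 scale in *Cxcl5*-/- cells (SE 0.39, 4.56-fold, edgeR adjusted p = 0.00111) and rose by 2.16 with *Hif1α* (SE 0.37, 4.46-fold, edgeR adjusted p = 0.000806). With *Myc* it rose 2.20-fold (log2 difference 1.14 ± 0.37 SE, edgeR adjusted p = 0.0289), a call lost without either *Cxcl5*-/- library or without *Myc*OE*Cxcl5*-/- library 2 (adjusted p 0.107, 0.145 and 0.0895). The 2.03-fold lower level with *Myc* than with *Hif1α* (edgeR adjusted p = 0.0355) was lost without either *Cxcl5*-/- library, *Hif1α*OE*Cxcl5*-/- library 1 or 2, or *Myc*OE*Cxcl5*-/- library 1 or 3 (adjusted p 0.0502 to 0.102). In conditioned medium *Cxcl10* was at 1.23, 1.35 and 1.91 CPM in Ctrl, 0.746, 2.94 and 1.71 in M0-CM and 0.608, 7.46 and 5.92 CPM in M1-CM spheroids. Of the M1-CM libraries 2 lay above all others and the remaining library below all others, and the log2 difference from Ctrl was 1.64 ± 0.77 SE (edgeR unadjusted p = 0.0605, adjusted p = 0.965). Without M1-CM library 1 it was 2.16 (unadjusted p = 0.00251, adjusted p = 0.518).

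*Ccl5*, which recruits T cells and monocytes, had no more than 79 counts in any library. It was at 0.154, 0.230 and 0.417 CPM in 2D WT and 1.34, 0.864 and 1.46 CPM in 3D WT cells, groups that did not overlap, and was 4.49-fold higher in 3D (log2 difference 2.17 ± 0.49 SE, edgeR adjusted p = 0.00244). In 3D cells labelled *Cxcl5*-/- it was at 0.284, 0.347 and 0.122 CPM, 4.86-fold lower than in 3D WT cells (-2.28 ± 0.49 SE, edgeR adjusted p = 0.00195). The 3D WT cells thus had the highest *Ccl5* of the 4 groups. The 2D *Cxcl5*-/- cells, at 0.133, 0.0483 and 0.0924 CPM, lay below 2D WT (log2 difference -1.54 ± 0.55 SE) without passing the test (edgeR adjusted p = 0.135). The rise between 2D *Cxcl5*-/- cells and 3D cells labelled *Cxcl5*-/- (edgeR adjusted p = 0.0427) was not called in any of 8 fits that each left out a library, namely 2D WT library 2, 2D *Cxcl5*-/- library 2 or 3, 3D WT library 1, 2 or 3, or library 1 or 2 of those labelled 3D *Cxcl5*-/- (adjusted p 0.0506 to 0.148). Rescue samples had *Ccl5* at 1.28 and 0.5 CPM in WT, 0.415 and 0.487 in *Cxcl5*-/-, 0.608, 0.996 and 0.434 in *Hif1α*OE*Cxcl5*-/- and 0.550, 0.391 and 0.494 CPM in *Myc*OE*Cxcl5*-/- cells. These groups lay close together and no comparison passed, the smallest edgeR adjusted p being 0.191, for *Cxcl5*-/- against WT. In conditioned medium it was at 0, 0.267 and 0 CPM in Ctrl, 0.263, 0.350 and 0.256 in M0-CM and 0.288, 1.22 and 0.496 CPM in M1-CM spheroids, all M1-CM libraries being above Ctrl (edgeR adjusted p = 0.965).

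*Cx3cl1*, the membrane-anchored ligand of CX3CR1 on monocytes and NK cells, behaved differently in the 2 experiments with knockout cells. It was at 20.99, 17.4 and 17.7 CPM in 2D WT, 16.4, 16.9 and 15.9 in 2D *Cxcl5*-/-, 48.9, 40.5 and 41.4 in 3D WT and 26.0, 30.7 and 25.7 CPM in 3D cells labelled *Cxcl5*-/-. The 3D libraries lay above all 2D libraries, and WT above those labelled *Cxcl5*-/- in each culture. *Cx3cl1* rose 2.33-fold from 2D to 3D in WT cells (log2 difference 1.22 ± 0.11 SE, edgeR adjusted p = 7.47e-07) and was 1.59-fold lower in 3D cells labelled *Cxcl5*-/- than in 3D WT cells (-0.67 ± 0.11 SE, adjusted p = 0.000188), while in 2D the genotype difference of -0.19 did not pass (adjusted p = 0.399). Scaling by library totals instead of TMM left the 3D genotype difference at -0.27 and without a call. The interaction of -0.48 ± 0.15 SE (edgeR adjusted p = 0.0314) was lost when any of 6 libraries was left out (2D WT library 2, 2D *Cxcl5*-/- library 1, 2 or 3, 3D WT library 1, or library 3 of those labelled 3D *Cxcl5*-/-, adjusted p 0.0507 to 0.0961), with library totals, and without the filter on low counts.

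Rescue samples had *Cx3cl1* at 17.1 and 15.3 CPM in WT, 22.5 and 25.1 in *Cxcl5*-/-, 21.1, 22.8 and 22.5 in *Hif1α*OE*Cxcl5*-/- and 18.4, 19.8 and 19.5 CPM in *Myc*OE*Cxcl5*-/- cells. Here WT was the lowest group. *Cx3cl1* was 1.47-fold higher in *Cxcl5*-/- than in WT cells (log2 difference 0.55 ± 0.11 SE, edgeR adjusted p = 0.0019), against a shift of -0.30 for the middle gene, which is the direction opposite to that of the 3D comparison in the other experiment. The difference between the experiments was not tested, since the tables were counted and scaled apart, and of the 7 genes *Cx3cl1* alone was called in opposite directions. The 1.24-fold lower level with *Myc* than in *Cxcl5*-/- cells (edgeR adjusted p = 0.026) was lost without any 1 of the WT or *Cxcl5*-/- libraries or without *Myc*OE*Cxcl5*-/- library 1 (adjusted p 0.0502 to 0.277). In conditioned medium *Cx3cl1* was at 22.4, 23.7 and 21.7 CPM in Ctrl, 29.5, 29.0 and 25.3 in M0-CM and 14.9, 45.9 and 30.4 CPM in M1-CM spheroids. The M1-CM libraries spread on both sides of the other groups, and the difference from Ctrl was 0.43 ± 0.32 SE on the log2 scale (edgeR adjusted p = 0.965).

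*Cxcl16*, the membrane-anchored ligand of CXCR6, was low and moved chiefly with *Hif1α*. In the rescue experiment it was at 1.76 and 2.80 CPM in WT, 1.39 and 1.34 in *Cxcl5*-/-, 6.86, 8.44 and 7.61 in *Hif1α*OE*Cxcl5*-/- and 3.91, 2.04 and 2.19 CPM in *Myc*OE*Cxcl5*-/- cells. The *Hif1α*OE*Cxcl5*-/- libraries exceeded every other library, WT included. *Cxcl16* rose 5.59-fold with *Hif1α* (log2 difference 2.48 ± 0.33 SE, edgeR adjusted p = 0.000125) and was 2.82-fold lower with *Myc* than with *Hif1α* (-1.49 ± 0.27 SE, adjusted p = 0.00225). The 1.98-fold rise with *Myc* (0.99 ± 0.32 SE, edgeR adjusted p = 0.0281) was lost without either *Cxcl5*-/- library or without *Myc*OE*Cxcl5*-/- library 1 (adjusted p 0.110, 0.130 and 0.0814). Between *Cxcl5*-/- and WT cells the difference of -0.74 ± 0.34 SE did not pass (edgeR adjusted p = 0.0963), but did without *Myc*OE*Cxcl5*-/- library 1 (adjusted p = 0.0388).

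In the 2D and 3D experiment *Cxcl16* was at 2.08, 2.01 and 1.97 CPM in 2D WT, 1.01, 1.22 and 0.77 in 2D *Cxcl5*-/-, 2.99, 1.47 and 2.49 in 3D WT and 1.72, 1.59 and 1.82 CPM in 3D cells labelled *Cxcl5*-/-. Only the 2D *Cxcl5*-/- libraries lay apart, below the rest. The 2.02-fold lower level in 2D *Cxcl5*-/- than in 2D WT cells (log2 difference -1.01 ± 0.26 SE, edgeR adjusted p = 0.0309) was lost when any of 7 libraries was left out (2D WT library 1, 2 or 3, 2D *Cxcl5*-/- library 1 or 3, 3D WT library 3, or library 3 of those labelled 3D *Cxcl5*-/-, adjusted p 0.0525 to 0.149). From 2D to 3D *Cxcl16* differed by 0.20 ± 0.25 SE in WT cells (edgeR adjusted p = 0.566), and the 3D genotype difference of -0.44 (adjusted p = 0.18) passed only without 3D WT library 2 (-0.70, adjusted p = 0.0264). 3D cells labelled *Cxcl5*-/- exceeded 2D *Cxcl5*-/- cells by 0.77 (adjusted p = 0.0215), a call lost without 2D *Cxcl5*-/- library 3 or library 3 of those labelled 3D *Cxcl5*-/- (adjusted p 0.0885 and 0.0658). In conditioned medium *Cxcl16* was at 1.99, 3.47 and 2.51 CPM in Ctrl, 1.90, 2.10 and 2.14 in M0-CM and 3.30, 5.95 and 8.23 CPM in M1-CM spheroids. The M1-CM libraries lay above all M0-CM libraries (log2 difference 1.51 ± 0.37 SE, edgeR unadjusted p = 0.00215, adjusted p = 0.989), and overlapped Ctrl. Of the sheddases, *Adam10* averaged 67.1 CPM in 3D WT cells and 114 in 3D cells labelled *Cxcl5*-/- (log2 difference 0.76 ± 0.14 SE, edgeR adjusted p = 0.000557), while *Adam17* averaged 100 and 76.8 CPM (-0.38 ± 0.071 SE, adjusted p = 0.000634). *Adam10* was higher in *Cxcl5*-/- than in WT cells in the rescue experiment too (135 against 72.8 CPM), and lower with *Hif1α* (90.4) and with *Myc* (70.9 CPM). Of the whole list of 6 shedding and trimming enzymes, 5 were tested between 3D cells labelled *Cxcl5*-/- and 3D WT cells. All 5 were called, *Adam10*, *Mmp14* and *Mmp2* up and *Adam17* and *Mmp9* down, where 45.0% of all genes were called.

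*Cxcl12*, *Cxcl9* and *Ccl20* were at or near the floor in most libraries. In the 9 conditioned medium libraries *Cxcl9* and *Ccl20* had 0 counts throughout and *Cxcl12* 3 counts in a single M0-CM library. A count of 0 allows up to 3 counts, and intervals of this kind cover counting error only. *Cxcl12*, the homeostatic ligand of CXCR4, had 7, 0 and 5 counts in 2D WT, 4, 7 and 20 in 2D *Cxcl5*-/-, 8, 3 and 11 in 3D WT and 0, 3 and 0 counts in 3D cells labelled *Cxcl5*-/-. The highest of these came from 2D *Cxcl5*-/- cells, and no difference is read from counts of this size. Rescue samples had 56 and 48 counts in WT, 0 and 0 in *Cxcl5*-/-, 6, 15 and 23 in *Hif1α*OE*Cxcl5*-/- and 0, 3 and 6 counts in *Myc*OE*Cxcl5*-/- cells. The WT libraries stood highest. With 3 counts per library as the floor, mean *Cxcl12* in WT cells was 18.5 times the floor level of the *Cxcl5*-/- libraries. In *Hif1α*OE*Cxcl5*-/- cells it was 4.31 times that level. Such ratios leave out the counting error of the higher group and are given as a description.

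*Cxcl9*, the neighbour of *Cxcl10* and like it an interferon target, had 9, 3 and 0 counts in 3D WT cells and 0 in the other 9 libraries of that experiment. Among rescue samples it had 9 and 13 counts in WT, 0, 3 and 0 in *Hif1α*OE*Cxcl5*-/-, 3, 0 and 0 in *Myc*OE*Cxcl5*-/- and 0 in both *Cxcl5*-/- libraries. Counts above 3 were thus seen only in 3D WT cells of these experiments. The conditioned medium spheroids, also WT cells in Matrigel, had 0 counts. In the rescue experiment the WT mean was 3.91 times the floor level of the *Cxcl5*-/- libraries, given as a description. *Ccl20*, the CCR6 ligand, had 0, 0 and 6 counts in 3D WT cells and 0 in the other 9 libraries of the 2D and 3D experiment. Among rescue samples it had 12 and 0 counts in WT, 14, 22 and 9 in *Myc*OE*Cxcl5*-/- and 0 in *Hif1α*OE*Cxcl5*-/- and *Cxcl5*-/- libraries. Within this experiment it was the only one of the 10 genes with its highest group mean in *Myc*OE*Cxcl5*-/- cells. That mean was 5.64 times the floor level of the *Hif1α*OE*Cxcl5*-/- libraries and 5.05 times that of the *Cxcl5*-/- libraries, given as a description.

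The rescue WT libraries, which hold the highest *Cxcl12* and *Cxcl9* counts, are those in which many more genes were detected. The summed levels of the T cell and endothelial markers were also highest in them. *Ptprc*, the pan-leukocyte gene, averaged 1.73 CPM there, 0.113 in *Cxcl5*-/- and 0.462 in *Hif1α*OE*Cxcl5*-/- cells, and *Adgre1* averaged 0.590 CPM in WT and was at 0 in both of the latter groups. The summed level of the 8 macrophage markers did not follow, at 44.5 CPM in WT, 34.6 to 34.8 in *Cxcl5*-/-, 45.3 to 63.6 in *Hif1α*OE*Cxcl5*-/- and 60.01 to 76.9 CPM in *Myc*OE*Cxcl5*-/- cells. The part of these transcripts in the *Cxcl12* and *Cxcl9* counts was not tested. With both rescue WT libraries left out of the fit, a setting added after the data were seen, the same 5 of the 7 genes tested throughout (*Ccl2*, *Ccl7*, *Csf1*, *Cxcl10* and *Cxcl16*) were called between *Hif1α*OE*Cxcl5*-/- and *Cxcl5*-/- cells.

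**Figure D4:**
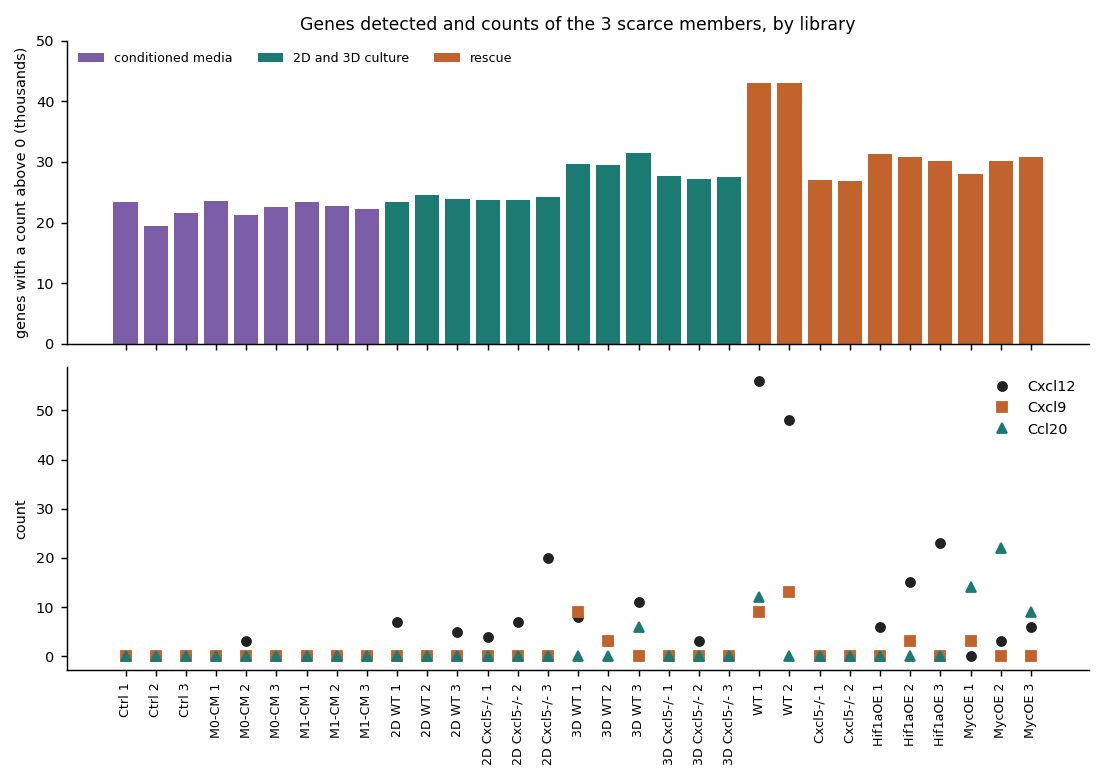
For each library, the number of genes with a count above 0 (top, axis in units of 1000 genes), and the counts of *Cxcl12*, *Cxcl9* and *Ccl20* (bottom). The 2 rescue WT libraries hold the most detected genes, 43037 and 43048, and the highest *Cxcl12* counts, 56 and 48, whereas *Ccl20* is highest in *Myc*OE*Cxcl5*-/- libraries.

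Most receptors of these ligands were at or near the floor. Of 14 listed receptors 3 were tested in conditioned medium, 4 in the 2D and 3D experiment and 8 in the rescue experiment. *Ccr2* did not exceed 0.905 CPM in the latter pair of experiments, *Cxcr3* 0.0435 CPM and *Csf1r* 0.571 CPM, so receptor transcripts for *Ccl2*, *Cxcl10* and *Csf1* were close to the floor where their ligands were counted. *Ackr3*, the scavenger of *Cxcl12*, was counted far above the others. Its mean was 26.8 CPM in 2D and 141 CPM in 3D WT cells (log2 difference 2.39 ± 0.13 SE, edgeR adjusted p = 7.35e-09), 23.7 in 2D *Cxcl5*-/- and 40.9 CPM in 3D cells labelled *Cxcl5*-/-. The 3D genotype difference was -1.78 ± 0.12 SE (edgeR adjusted p = 1.1e-07), and in the rescue experiment *Ackr3* averaged 51.5 CPM in WT, 23.2 in *Cxcl5*-/-, 38.3 in *Hif1α*OE*Cxcl5*-/- and 37.0 in *Myc*OE*Cxcl5*-/- cells. Of the 4 receptors tested in the 2D and 3D experiment *Ackr3* was the only one called between 3D and 2D WT cells and between the 3D genotypes. Of all genes, 44.3% and 45.0% were called in these comparisons. *Cxcr6*, the receptor of *Cxcl16*, averaged 0.913 CPM in 2D WT, 0.509 in 2D *Cxcl5*-/-, 1.41 in 3D WT and 2.02 CPM in 3D cells labelled *Cxcl5*-/-, and was called between the latter and 2D *Cxcl5*-/- cells (log2 difference 1.98 ± 0.35 SE, edgeR adjusted p = 0.000264). Among rescue samples it averaged 1.12 CPM in WT, 2.94 in *Cxcl5*-/-, 1.35 with *Hif1α* and 1.24 with *Myc*, and was called higher in *Cxcl5*-/- than in WT cells (1.40 ± 0.40 SE, edgeR adjusted p = 0.0179) and lower with either transgene.

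Among 21 other chemokines of the same cell types, 8, 7 and 11 were tested in the 3 experiments. None was called in conditioned medium by edgeR, where none had an unadjusted p under 0.05. Between 3D and 2D WT cells 4 of 7 rose (*Ccl27a*, *Ccl28*, *Ccl8* and *Ccl9*), where 44.3% of all genes were called. In 3D cells labelled *Cxcl5*-/- 2 of 7 were higher than in 3D WT cells (*Ccl25* and *Ccl28*) and 2 lower (*Ccl8* and *Ccl9*), where 45.0% of all genes were called. *Ccl9*, a CCR1 ligand that acts on monocytes, was the most abundant of those named, at 95.4 CPM in 3D WT, 25.8 in 3D cells labelled *Cxcl5*-/-, 21.6 in 2D WT and 7.39 CPM in 2D *Cxcl5*-/- cells on average. The order of its group means was that of *Cxcl10* and not that of *Ccl2*. In the rescue experiment *Ccl9* and *Ccl8*, a CCR2 ligand, parted: *Ccl8* averaged 0.566 CPM in *Cxcl5*-/-, 4.74 with *Hif1α* and 0.360 with *Myc*, and *Ccl9* 16.5, 11.5 and 42.6 CPM. Calls in either direction came to 4 of 11 between *Cxcl5*-/- and WT cells (41.9% of all genes called), 6 of 11 with *Hif1α* (35.5% of all genes) and 4 of 11 with *Myc* (39.6%).

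Of 10 NF-κB and interferon pathway factors, all tested in each experiment, 7 rose between 2D and 3D WT cells, where 44.3% of all genes were called. *Nfkbia*, an NF-κB inhibitor that is itself a target of the pathway, averaged 32.6 CPM in 2D WT cells against 56.6 in 3D WT, and 21.3 CPM in 3D cells labelled *Cxcl5*-/- (-1.41 ± 0.13 SE against 3D WT, edgeR adjusted p = 1.69e-06), and in the rescue experiment 39.9 CPM in WT, 14.3 in *Cxcl5*-/- cells, 27.2 with *Hif1α* and 33.2 with *Myc*. In 3D cells labelled *Cxcl5*-/- 5 of the 10 were lower than in 3D WT cells (*Irf1*, *Nfkb1*, *Nfkb2*, *Nfkbia* and *Rela*, with 45.0% of all genes called) and in 2D 3 (*Nfkb2*, *Nfkbia* and *Relb*, with 7.03%). *Nfkb2* and *Nfkbia* were the 2 called, both lower, in rescue *Cxcl5*-/- against WT cells (41.9% of all genes). With *Hif1α* 6 rose and 1 (*Rel*) fell (35.5%), and with *Myc* 2 rose (*Irf1* and *Nfkbia*) and 3 fell (39.6%).

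Likeness of pattern was measured as Pearson's r of log2 CPM over the libraries of an experiment, averaged over the 3 experiments, for 18384 genes tested in all of them. It is a description, since libraries share their condition and their scaling. The gene most like *Ccl2* was *Ccl7* and the reverse (mean r 0.976), and the next for both was *Blnk*, a signalling adaptor (0.855 and 0.897). *Cxcl10* was nearest to *Igtp*, an interferon-inducible GTPase (0.884), *Cxcl16* to *Nfkbie*, an NF-κB inhibitor (0.876), and *Cx3cl1* to *Adar*, an RNA-editing enzyme with an interferon-inducible form (0.890), and *Uba7*, the enzyme that activates the ubiquitin-like protein ISG15 (0.844). *Csf1* was nearest to *Pxn*, a focal adhesion protein (0.926), and *Rbpj*, the DNA-binding factor of Notch signalling (0.918). *Ccl5*, the least counted of the 7, had the weakest nearest neighbours, *Dpys* (0.757) and *Tmem254a* (0.743).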

How the data were processed

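RNA of 31 Panc02 samples was analysed in 3 gene count tables. The authors made stranded total RNA libraries, sequenced read pairs (NovaSeq) and ran HISAT2 on GRCm38 and then StringTie, and the deposited values are raw counts that are not normalized. The annotation release, the step from StringTie to counts and its strand setting are not given in the sources used here. No 2 columns were identical. Groups came from the labels.

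Counts were tested in R 4.3.3 with edgeR 4.0.16 by its quasi-likelihood method (TMM scaling, filterByExpr, 1 fit for each table) and Benjamini-Hochberg adjustment over 19207, 21367 and 28730 genes tested, called at an adjusted p under 0.05. SE was the log2 fold change divided by the square root of F. CPM were TMM-scaled, and exon lengths came from GENCODE vM21. Alternatives were DESeq2 1.42.0, its size factors, library totals, no filter, a replicate block, leaving out each library and, added after seeing the data, leaving out both rescue WT libraries. The scripts were tested on simulated data. The rule named all 10 members, the targeted genes, called or highest genes of fixed lists and the 2 most alike genes. Members and lists were chosen with earlier results of these data known. Some listed genes are not reported here. Python code used pandas 2.3.3 and numpy 2.4.6, and plots were drawn with matplotlib 3.10.9.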

Additional observations from a re-analysis of the deposited data

Results flagged for a closer look

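The effect of the knockout differed between 3D and 2D culture, by the interaction term, for 4 of the 7 genes tested: *Ccl2* (1.14 on the log2 scale, 3D minus 2D), *Ccl7* (1.38), *Csf1* (-1.17) and *Cx3cl1* (-0.48). Of all genes tested 27.2% were called there. The call of *Cx3cl1* was lost when any of 6 libraries was left out, with library totals and without the filter on low counts. All 4 interactions rest on 3D cells labelled *Cxcl5*-/-, in which *Cxcl5* counts were higher than in 3D WT cells. *Cx3cl1* also had opposite knockout effects in the 2 experiments with 3D cells, with a log2 difference of -0.67 in the 2D and 3D experiment and 0.55 in the rescue experiment, where all libraries of one genotype lay above those of the other in each case. With library totals the former was -0.27 and not called (edgeR adjusted p = 0.101), and the latter rests on the 2 rescue WT libraries, which stood apart with 43037 and 43048 genes above 0. The difference between the experiments was not tested.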

How the results depend on the processing

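The values below are for the 7 genes tested in all 3 experiments. *Cxcl12*, *Cxcl9* and *Ccl20* are left out, since they passed the filter in the rescue table through the groups where they were high. A single range of *Cxcl9* is given below as a description only. Between M1-CM and Ctrl the count of called genes was 0 with edgeR and 1 with DESeq2. Between *Myc*OE*Cxcl5*-/- and *Cxcl5*-/- cells it was 4 of 7. There DESeq2 also called *Ccl7* and *Csf1*, and leaving out the filter on low counts lost *Cxcl10* and *Cxcl16*. *Ccl7* and *Csf1* were gained without *Hif1α*OE*Cxcl5*-/- library 2. *Cxcl16* and *Cx3cl1* were lost without *Myc*OE*Cxcl5*-/- library 1, and *Cxcl10* without *Myc*OE*Cxcl5*-/- library 2. Calls lost without a *Cxcl5*-/- library are given above. Leaving out a library gave 0 to 0 in the 3 comparisons of media and 6 to 6 for 3D against 2D WT. It gave 4 to 6 for 3D and 3 to 4 for 2D *Cxcl5*-/- against WT, and 5 to 7 for 3D against 2D *Cxcl5*-/-. In the interaction only the *Cx3cl1* call was lost, in 6 fits. Between rescue *Cxcl5*-/- and WT cells *Cxcl16* was gained without *Myc*OE*Cxcl5*-/- library 1. Between the overexpressing lines only the *Cxcl10* call was lost. Between *Hif1α*OE*Cxcl5*-/- and *Cxcl5*-/- cells no call changed without a library of either overexpressing line. With both rescue WT libraries left out, *Ccl7* was gained between *Myc*OE*Cxcl5*-/- and *Cxcl5*-/- cells and no other call among the remaining groups changed.

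Directions that turned belonged to differences that did not pass the test, and the cause was not tested. With library totals, *Cxcl16* in 3D against 2D WT was -0.030 and *Ccl5* with *Myc* was -0.25. When a library was left out, the log2 difference of *Cx3cl1* in M1-CM against M0-CM ran from -0.30 to 0.45. In M0-CM against Ctrl it ran from -0.41 to 0.22 for *Ccl7* and from -0.29 to 0.64 for *Cxcl10*. It ran from -0.0021 to 0.46 for *Cxcl16* in 3D against 2D WT and from -0.021 to 0.22 for *Ccl5* with *Myc*. For *Cxcl9* it ran from -3.04 to 3.20 in *Myc*OE*Cxcl5*-/- against *Hif1α*OE*Cxcl5*-/- cells. Each of these groups had 3 counts of *Cxcl9* in a single library and 0 in the others, so no direction is read from it. Library totals added 3 single calls and ended those of *Cx3cl1* in 3D *Cxcl5*-/- against WT and in the interaction. They also ended those of *Csf1* between the *Cxcl5*-/- cultures and of *Cxcl10* and *Cxcl16* with *Myc*. Leaving out the filter ended those of *Cxcl16* in 2D *Cxcl5*-/- against WT, *Ccl5* between the *Cxcl5*-/- cultures and *Cx3cl1* in the interaction. It also ended those of *Cxcl10* and *Cxcl16* with *Myc* and of *Cxcl10* between the overexpressing lines. Library totals moved the calls over all genes between 3D cells labelled *Cxcl5*-/- and 3D WT from 4218 up and 5397 down to 7671 up and 2445 down.

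Replicate numbers did not pair the samples: of 40 same-numbered pairs, 4 had a correlation of deviations over 0.1 (range -0.236 to 0.359). With the replicate block, the call of *Ccl5* between the *Cxcl5*-/- cultures was lost and 2 were gained (*Ccl2* in 3D *Cxcl5*-/- against WT and *Ccl7* with *Myc*). *Cxcl10* in M0-CM against Ctrl turned to -0.041.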
